A study of Mus musculus with 20 samples.

Results

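Erythroblasts carrying the Ter119 antigen were compared with Gr-1-positive neutrophils, both sorted from mice of C57BL/6 background. The comparison used 4 of the 20 arrays of a series on 10 blood cell populations, 2 arrays of Erythroblast and 2 of Neutrophil, chosen by their sample titles. The other 8 populations, with 2 arrays each, were KSL cells, cells negative for lineage markers (LinNeg), B cells sorted on B220, CD4 T cells (CD4T), CD8 T cells (CD8T), NK cells sorted on NK1.1, NKT cells sorted on CD3ε and NK1.1, and monocytes/macrophages sorted on Mac-1 (Monocyte). They served to place both cell types in the series. No allele, agent or time course is labelled for any population. Total RNA was extracted with ISOGEN, RNA equivalent to 3000 cells was amplified in 2 cycles, and the product was hybridised to Affymetrix Mouse Genome 430 2.0 arrays. The labels call the 2 samples of a population biological replicates, without giving animals, ages, the tissue or further gates, so p-values measure the spread between these arrays.

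Ter119 is an antigen of the red cell lineage that appears while precursors are still nucleated, so the sort takes dividing erythroblasts and later stages together. Erythroblasts divide a few more times while they fill with haemoglobin, then condense and expel the nucleus and clear their organelles. The Gr-1 antibody binds Ly6G, a neutrophil antigen, and also Ly6C, which monocytes carry. Mac-1, on which Monocyte was sorted, is carried by neutrophils as well. Neutrophil precursors stop dividing at about the stage at which they make secondary granules, and the mature cell keeps a lobed nucleus, packs its granules with proteases and antimicrobial proteins, and lives on glycolysis. Both lineages therefore end in cells that no longer divide, along different routes.

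The values are linear probe set intensities as deposited, with 1 probe set per gene, and each array's mean without its outermost values was 100. Differences are given as Erythroblast minus Neutrophil on the scale log2(intensity + 6.75), where the added constant understates the change of dim genes, and each is followed by its standard error from a limma fit across all 20 arrays. Calls required a limma adjusted p below 0.05 together with a log2 difference of at least 1 in size. They covered 6233 of 14044 genes tested (44.4%), of which 3033 (21.6%) were called higher and 3200 (22.8%) lower in erythroblasts, as shares of genes tested. The arrays of the 2 populations did not overlap for 10224 genes (72.8%). The median difference over all genes tested was 0.10. The counts of each gene list below are to be read against those shares of 21.6% higher and 22.8% lower and that median.

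The labels were checked against the markers Alas2, Camp and Mki67. Alas2, the first enzyme of heme synthesis in red cell precursors, had an intensity of 10792 and 8033 in erythroblasts against 79.8 and 50.3 in neutrophils. Camp, the precursor of the antimicrobial peptide CRAMP in secondary granules, had 6.83 and 3.85 in erythroblasts against 13475 and 10936 in neutrophils. Each marker was high on both arrays of its own population and near or below 100 on both arrays of the other. All 8 erythroblast markers tested were called higher and all 10 neutrophil markers were called lower. Mki67, the proliferation antigen Ki-67, had 10965 and 8279.7 in erythroblasts against 917 and 1503 in neutrophils, a log2 difference of 3.01 ± 0.39 (adjusted p = 1.66e-06). The neutrophil arrays were thus well below the erythroblast arrays for Mki67 and still within the range of the other 8 populations, whose means ran from 90.4 to 3555.

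The antigens bound by Gr-1 were not analysed here, because no probe set used names Ly6g, Ly6c1 or Ly6c2 alone. Ptprc, the pan-leukocyte antigen CD45, had 1.02 and 2.67 in erythroblasts against 6477 and 6148 in neutrophils, with a log2 difference of -9.53 ± 0.14 (adjusted p = 8.99e-20). Itgam, the Mac-1 chain CD11b, had 23.5 and 1.85 in erythroblasts against 814 and 720.1 in neutrophils. Ptprc was near the floor of both Erythroblast arrays. Itgam was near it on replicate 2 only, and on replicate 1 it was close to that array's median intensity of 22.4. Cd8a, a T cell coreceptor chain, went the other way with 88.5 and 186 in erythroblasts against 18.7 and 30.1 in neutrophils (2.14 ± 0.57, adjusted p = 0.00344). Its probe set is of a type that can match several transcripts and averaged only 258 in CD8T. Of its 4 further probe sets, 2 had the opposite sign. Cd8a was not called without Erythroblast replicate 2 or with the mean of all probe sets. The 10 neutrophil markers were also high in Monocyte, where their summed intensity averaged 80685, against 110650 and 92244 on the Neutrophil arrays and 278 and 163 on the Erythroblast arrays.

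Replicates correlated at r = 0.953 (Erythroblast) and 0.961 (Neutrophil) over all genes, as a description of arrays that share a platform. Erythroblast and Neutrophil arrays correlated at 0.507 to 0.546, below the 0.668 to 0.708 of Erythroblast with LinNeg and the 0.901 to 0.931 of Neutrophil with Monocyte. The ratio of 3' to 5' probe sets of Gapdh, a measure of how far the labelled RNA reaches, was 5.86 and 6.10 in Erythroblast and 2.48 and 2.36 in Neutrophil, with 3.10 to 5.71 on the other 16 arrays. That ratio moved with the comparison, and its part in the results was not tested. In sorted bulk samples, fewer cells of a type and less RNA per cell cannot be told apart, so a difference between these arrays may reflect either.

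Promoter sequence is shown because heme synthesis, granule and cell division genes each moved as a group, with Alas2, Camp and Mki67 as the examples. Each run holds the 250 bases upstream of the annotated start, 5′ to 3′ on the gene's strand, from RefSeq on the mouse build GRCm38.p6. Capitals mark matches on either strand to AGATAA (bound by GATA factors) and CCACCC (bound by Klf factors) in Alas2, to TTGCNNAA (C/EBP factors) and GAGGAA (PU.1) in Camp and Mmp8, and to TTTGAA (the cell cycle element CHR) and CCAAT (NF-Y) in Mki67. Mmp8, the neutrophil collagenase, was added after Camp proved to hold neither motif in this window.
Alas2, chrX:150547167-150547416, plus strand: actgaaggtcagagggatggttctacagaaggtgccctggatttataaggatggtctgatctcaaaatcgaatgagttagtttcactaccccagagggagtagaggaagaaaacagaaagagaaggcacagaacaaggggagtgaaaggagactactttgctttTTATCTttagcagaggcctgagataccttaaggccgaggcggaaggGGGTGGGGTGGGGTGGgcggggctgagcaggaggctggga
Camp, chr9:109849457-109849706, minus strand: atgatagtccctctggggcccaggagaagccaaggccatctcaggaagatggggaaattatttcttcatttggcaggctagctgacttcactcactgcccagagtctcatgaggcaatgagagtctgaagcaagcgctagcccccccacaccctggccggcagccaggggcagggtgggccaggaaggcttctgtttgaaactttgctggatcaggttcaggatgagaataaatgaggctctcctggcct
Mmp8, chr9:7558179-7558428, plus strand: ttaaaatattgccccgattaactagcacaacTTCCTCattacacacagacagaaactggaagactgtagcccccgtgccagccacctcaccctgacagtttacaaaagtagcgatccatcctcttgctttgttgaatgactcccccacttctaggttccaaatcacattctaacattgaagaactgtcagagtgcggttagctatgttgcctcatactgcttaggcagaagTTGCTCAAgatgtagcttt
Mki67, chr7:135716380-135716629, minus strand: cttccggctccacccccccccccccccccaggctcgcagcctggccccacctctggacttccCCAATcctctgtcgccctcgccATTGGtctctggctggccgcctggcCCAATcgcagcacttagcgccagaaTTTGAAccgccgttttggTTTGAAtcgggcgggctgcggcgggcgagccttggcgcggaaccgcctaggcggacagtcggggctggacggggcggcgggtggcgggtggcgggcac

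The Alas2 window held 1 match to AGATAA and 3 to CCACCC that overlap each other by 1 base, Mmp8 1 match to each of its motifs, and Mki67 2 matches to TTTGAA and 3 to CCAAT. Among the promoters of 11281 tested genes in the table, AGATAA was found in 6.5%, CCACCC in 33.5%, TTGCNNAA in 7.61%, GAGGAA in 22.6%, TTTGAA in 11% and CCAAT in 35.8%. Among all 32851 promoters of the table the shares were 9.99%, 28.1%, 9.56%, 23.3%, 16% and 33.8%, in the same order. CCAAT was present in 30 of the 40 mitosis genes with a promoter in the table (75%), and TTTGAA in 15 (37.5%). In DNA replication genes CCAAT was present in 20 of 33 (60.6%) and TTTGAA in 4 (12.1%), which lies between both backgrounds for TTTGAA. Of 19 genes of the secondary and tertiary granules, 8 held TTGCNNAA (42.1%) and 10 held GAGGAA (52.6%). The same 19 also held AGATAA in 4 (21.1%), TTTGAA in 5 (26.3%) and CCAAT in 10 (52.6%), above both backgrounds, and CCACCC in 6 (31.6%). Raised shares in this list were thus not particular to TTGCNNAA and GAGGAA. Among 16 red cell membrane genes, 10 held CCACCC (62.5%) and 5 held AGATAA (31.2%), while of 11 heme synthesis genes 4 held CCACCC (36.4%) and 1 held AGATAA (9.09%), shares near both backgrounds. The red cell membrane genes also held GAGGAA in 6 (37.5%). Over all genes called higher and all called lower, AGATAA was found in 6.75% and 5.48%, and TTGCNNAA in 6.87% and 7.97%, near the shares of tested genes. These are counts of letters in a short window, and binding was not measured.

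**Figure D1:**
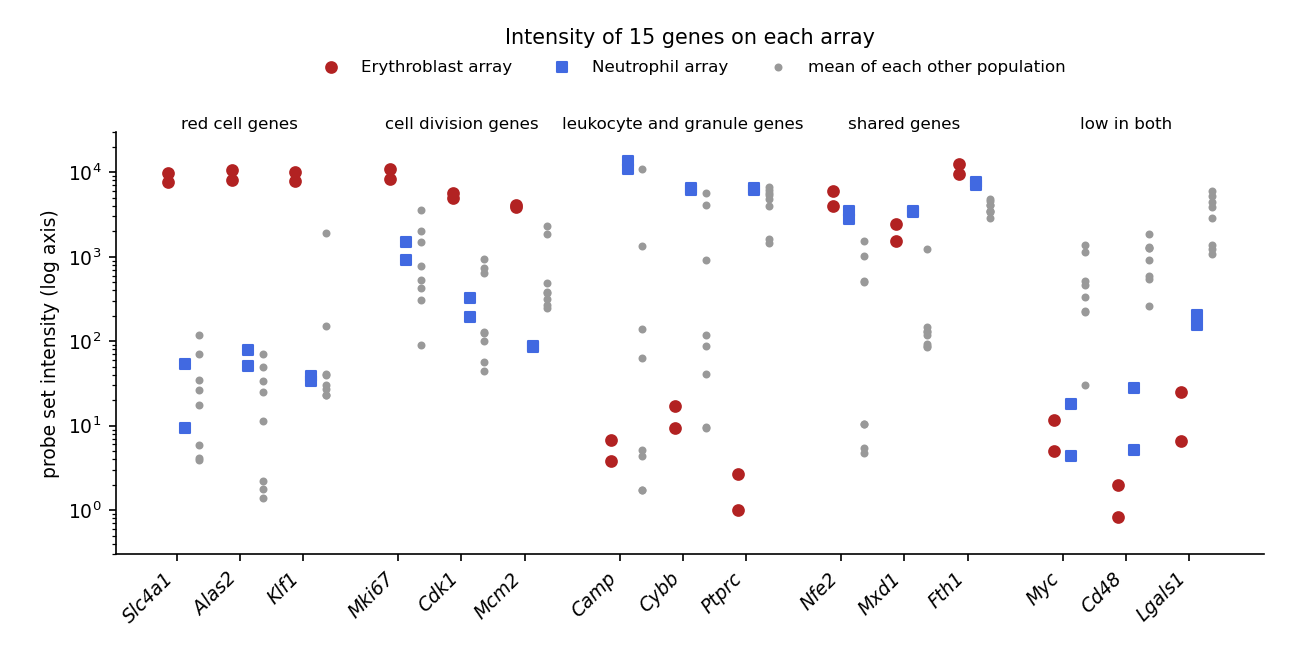
Probe set intensity (log axis) of 15 genes on each Erythroblast array (red circles) and Neutrophil array (blue squares), with the means of the other 8 populations in grey. Slc4a1, Alas2 and Klf1 were higher on both Erythroblast arrays than in every other population, Camp, Cybb and Ptprc were near the floor there, Nfe2, Mxd1 and Fth1 were above the other populations on all 4 arrays, and Myc, Cd48 and Lgals1 were below them; each gene is read against itself, since probe sets differ in brightness.

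The largest differences ran in both directions. A log2 difference of at least 4 was reached by 336 genes called higher and 752 called lower, and one of at least 8 by 13 and 47. Ermap, a membrane protein of erythroid cells, led the genes higher in erythroblasts with 10978 and 8264 in erythroblasts against 6.03 and 11.9 in neutrophils, a log2 difference of 9.27 ± 0.59 (limma adjusted p = 7.63e-11). Tspan33, a tetraspanin that red cell precursors need, followed with 9937 and 7612 in erythroblasts against 5.36 and 23.1 in neutrophils (8.84 ± 0.45). Behind them came Kel, the Kell blood group protease, at 8.83 ± 0.60, and Cldn13, a claudin of mouse erythroblasts, at 8.58 ± 0.79. No Neutrophil array was above 53.8 for any of the 15 genes with the largest differences upwards, and no Erythroblast array was below 2272. The group also held Myh10, a nonmuscle myosin heavy chain, with 3409.6 and 3002 in erythroblasts against 1.70 and 1.79 in neutrophils; Aldh1a1, a retinal dehydrogenase, with 3749 and 3402 in erythroblasts against 2.11 and 14.2 in neutrophils; and the amino acid transporter Slc38a5 with 3138 and 2712 in erythroblasts against 3.21 and 4.05 in neutrophils. Nxpe2 (8.82), Prxl2a (8.36) and Tmcc2 (7.96) completed it together with genes described further on.

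At the other end stood Lcn2, the iron-siderophore binder lipocalin 2, with 2.35 and 1.90 in erythroblasts against 13690 and 11807 in neutrophils and a log2 difference of -10.49 ± 0.78 (adjusted p = 6.32e-10). Lyz1, a lysozyme, reached -10.32 ± 0.60, Chil3, a chitinase-like protein, -10.19 ± 1.28, and Hp, which binds free haemoglobin, -10.14 ± 0.41. No Erythroblast array was above 11.01 for any of the 15 genes with the largest differences downwards, and no Neutrophil array was below 5688. This group mixed granule genes with genes that most leukocytes use. Cotl1, an actin-binding protein, had 1.85 and 2.61 in erythroblasts against 6864 and 6234 in neutrophils. Limd2, a LIM domain protein, had 2.03 and 2.84 in erythroblasts against 8583 and 6965 in neutrophils.

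**Figure D2:**
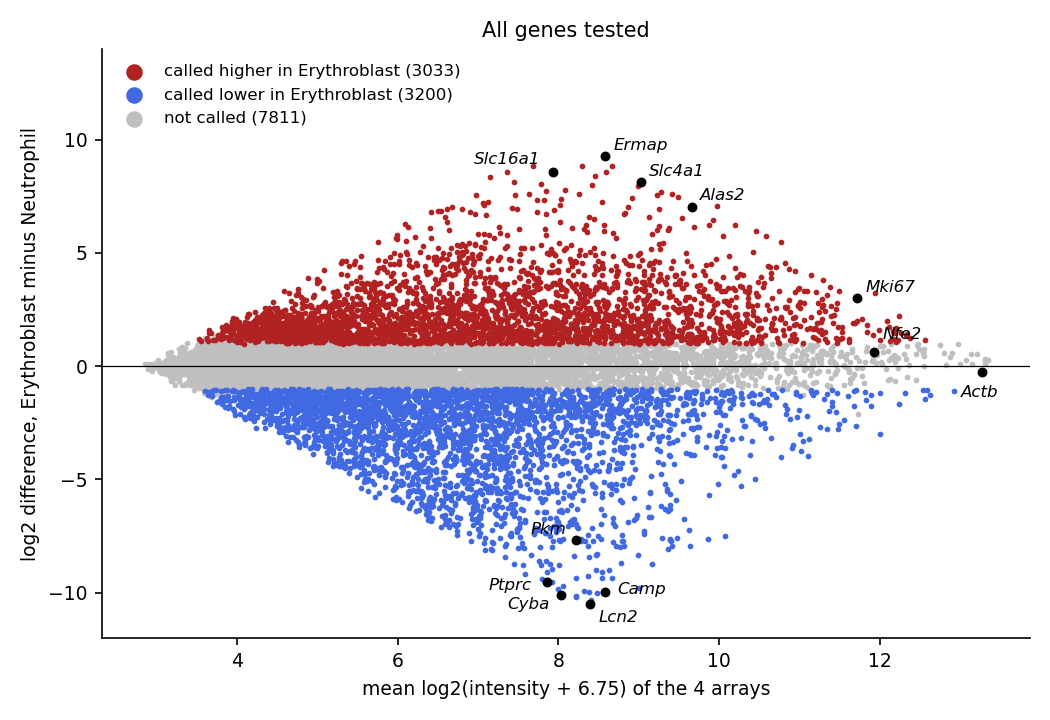
Log2 difference, Erythroblast minus Neutrophil, against the mean log2 level of the 4 arrays for each of 14044 genes tested. Red points are the 3033 genes called higher and blue points the 3200 called lower; the names mark genes described in the text.

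Both populations were then placed among all 10. Among the 3033 genes called higher, Erythroblast had the highest mean of all 10 populations in 1959 (64.6%, against 24.7% of all genes tested), and Neutrophil had the lowest in 1576 (52%, against 20.4%). Among the 3200 called lower, Erythroblast had the lowest mean in 2371 (74.1%, against 26.9%) and Neutrophil the highest in 1429 (44.7%, against 14.7%). These genes were called on the same values that rank the populations, so part of each excess over all genes is set by that choice. Erythroblast was at an extreme of the series more often than Neutrophil in both sets of calls, as counts that were not tested against each other. Rank counts of the gene lists below are to be read against these shares of all genes. Against the mean of the 8 populations other than Neutrophil, 2358 genes (16.8%) were called higher and 4150 (29.5%) lower in erythroblasts. Against the mean of the 8 populations other than Erythroblast, 1724 genes (12.3%) were called higher and 3018 (21.5%) lower in neutrophils. These comparisons share arrays with the main one, and their values are given side by side only.

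Genes of the red cell came out high in erythroblasts with few exceptions. Of 12 heme synthesis genes tested, 11 were called higher, against 21.6% of all genes, and the list's median difference was 5.33. Alad, the second enzyme of the pathway, had 6591 and 6322 in erythroblasts against 2.90 and 30.5 in neutrophils (8.41 ± 0.40, adjusted p = 9.08e-13). Fech, ferrochelatase, which inserts iron in the last step, had 13389 and 9142 in erythroblasts against 179 and 163 in neutrophils (5.96 ± 0.22). Urod, Uros, Cpox and Ppox, the enzymes between them, differed by 5.46 ± 0.17, 5.44 ± 0.25, 5.42 ± 0.33 and 3.41 ± 0.23. Neutrophil had the lowest mean of all 10 populations for Alad, Urod, Uros and Cpox. The 1 gene called lower was Alas1, the housekeeping form of the first enzyme, with 51.0 and 55.6 in erythroblasts against 1166 and 1133 in neutrophils (-4.27 ± 0.23, adjusted p = 5.55e-12). The isoforms of the first step thus stood in opposite order, with Alas2 at a log2 difference of 7.05 ± 0.85 (adjusted p = 6.24e-07).

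All 21 red cell membrane and skeleton genes tested were called higher, with a median of 6.53, and Erythroblast had the highest mean of the 10 populations in all 21. Slc4a1, the anion exchanger band 3, had 9866 and 7598 in erythroblasts against 9.40 and 53.8 in neutrophils (8.11 ± 1.02, adjusted p = 1.14e-06). Rhag, the Rh-associated glycoprotein, had 2981 and 2580.2 in erythroblasts against 2.90 and 14.5 in neutrophils, and Epb42, protein 4.2, had 3671 and 3099.8 in erythroblasts against 12.2 and 6.11 in neutrophils. No array of 1 population reached the other for these genes. Ank1, the ankyrin that ties band 3 to spectrin, had 8219 and 6196 in erythroblasts against 71.3 and 70.1 in neutrophils (6.53 ± 0.44). Aqp1, a water channel, had 5798 and 5258 in erythroblasts against 4.84 and 32.5 in neutrophils (8.02 ± 0.57). The smallest differences in the list belonged to genes that neutrophils also showed: Mpp1, a membrane scaffold protein, had 3954 and 2878 in erythroblasts against 1076 and 985 in neutrophils (1.71 ± 0.19). Add1, an adducin that caps actin filaments, had 4870.3 and 3668 in erythroblasts against 1506 and 1378 in neutrophils (1.55 ± 0.17). All 4 arrays lay above the other 16 for both.

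Adult alpha and beta globin could not be read from single genes, because their main probe sets carry several symbols. Of 9 genes of haemoglobin and its helpers tested, 7 were called higher, with a median of 5.77. Car2, a carbonic anhydrase, had 13259 and 10341 in erythroblasts against 67.7 and 92.6 in neutrophils (7.09 ± 0.38). Blvrb, biliverdin reductase B, had 7367 and 6197 in erythroblasts against 32.3 and 71.5 in neutrophils (6.94 ± 0.41). Prdx2, a peroxiredoxin abundant in red cells, had 13254 and 9604 in erythroblasts against 165 and 243 in neutrophils (5.77 ± 0.19), and Neutrophil was the lowest of the 10 populations for it. Hbb-b2, a beta globin gene, differed by 7.78 ± 0.68 on a probe set of a type that can match several transcripts, and its other probe set had the opposite sign. Hbb-y, an embryonic globin, was called at low intensity, with 91.0 and 52.6 in erythroblasts against 1.08 and 0.571 in neutrophils (3.33 ± 0.43). Hba-a1 and Hba-a2 did not pass, at 0.96 ± 0.58 (adjusted p = 0.178) and 0.39 ± 0.44 (adjusted p = 0.482), on dim probe sets. Hba-a1 had 12.2 and 49.4 in erythroblasts against 7.49 and 12.9 in neutrophils, and it was called higher without Erythroblast replicate 1 (1.74).

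Among 18 erythroid transcription factor genes, 14 were called higher and 1 lower, and the list split into a high and a moderate set. Klf1, the erythroid Krüppel-like factor, had 10148 and 7915 in erythroblasts against 39.0 and 34.1 in neutrophils (7.70 ± 0.48, adjusted p = 5.54e-11). Gata1, the master factor of the lineage, had 3191 and 2817 in erythroblasts against 23.04 and 70.2 in neutrophils (5.97 ± 0.43). Tal1, its partner, had 3774 and 2909.6 in erythroblasts against 25.3 and 34.5 in neutrophils (6.51 ± 0.43). Zfpm1, the Gata1 cofactor FOG-1, Gfi1b, a repressor, and Sox6 were in the same set, at 5.79 ± 0.30, 5.81 ± 0.34 and 6.06 ± 0.52. The moderate set held Lmo2, a bridging protein of the Tal1 complex, at 2.56 ± 0.35, E2f2 at 2.12 ± 0.30, Foxo3 at 1.33 ± 0.21 and Klf3 at 1.61 ± 0.20, for which 1 of 6 further probe sets had the opposite sign. Myb, a factor of immature progenitors, was the gene called lower, with 41.6 and 38.4 in erythroblasts against 397 and 495 in neutrophils (-3.27 ± 0.21, adjusted p = 9.28e-11), and Erythroblast had the lowest Myb mean of all 10 populations. Without Erythroblast replicate 1, 2 genes of the list were called lower. Nfe2 did not differ past the threshold, with 5955 and 3940.5 in erythroblasts against 3481 and 2771 in neutrophils (0.64 ± 0.29, adjusted p = 0.0701).

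More iron genes were called higher than lower in erythroblasts. Of 16 tested, 9 were called higher and 1 lower (56.2% and 6.25%), with a median of 1.11. Tfrc, the transferrin receptor, had 8881 and 6747 in erythroblasts against 127 and 149 in neutrophils (5.74 ± 0.27, adjusted p = 9.08e-13). Slc25a37, mitoferrin 1, which carries iron into mitochondria, had 10434 and 7429 in erythroblasts against 389 and 337 in neutrophils (4.58 ± 0.22). Glrx5, a glutaredoxin of iron-sulphur cluster assembly, had 12183 and 8641 in erythroblasts against 107 and 153 in neutrophils (6.25 ± 0.21). Steap3, the ferrireductase, and Slc11a2, the iron transporter DMT1, were also higher, at 3.77 ± 0.71 and 3.63 ± 0.32. The gene called lower was Slc25a28, mitoferrin 2, with 86.7 and 137 in erythroblasts against 287 and 306 in neutrophils (-1.38 ± 0.21), so that the paralogs of the mitochondrial carrier differed in opposite directions. The iron exporter Slc40a1, ferroportin, had 1338 and 1344 in erythroblasts against 3276 and 3282 in neutrophils and did not pass (-1.29 ± 0.69, adjusted p = 0.127), although it was called lower in a fit of the 4 arrays alone (limma adjusted p = 0.000228). Fth1, the ferritin heavy chain, was high on all 4 arrays, with 12558 and 9447 in erythroblasts against 7764 and 7094 in neutrophils (0.55 ± 0.15).

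The erythropoietin and Kit pathway did not move as a block: 4 of 13 genes were called higher and 6 lower (30.8% and 46.2%). Epor, the erythropoietin receptor, had 1709.6 and 1469.5 in erythroblasts against 29.8 and 50.3 in neutrophils (5.12 ± 0.40, adjusted p = 1.26e-09). Bcl2l1, the survival protein BCL-XL, had 1558 and 938 in erythroblasts against 176 and 139 in neutrophils (2.90 ± 0.27). Kit, the receptor for stem cell factor, had 2.62 and 10.9 in erythroblasts against 121 and 175 in neutrophils (-3.57 ± 0.36, adjusted p = 4.65e-08). Erythroblast had the lowest Kit mean of the 10 populations. Negative regulators of cytokine signals were among the genes called lower. The phosphatase gene Ptpn6 (SHP-1) had 6.15 and 5.22 in erythroblasts against 3005 and 2627 in neutrophils (-7.82 ± 0.22). The inhibitor Socs3 had 1.42 and 1.98 in erythroblasts against 250.2 and 286 in neutrophils (-5.02 ± 0.49), and the adaptor Sh2b3 (LNK) differed by -4.49 ± 0.20. Jak2, the kinase of the receptor, had 1001 and 1164 in erythroblasts against 638 and 566 in neutrophils, values that did not overlap but differed by less than the size required (0.84 ± 0.15), and it was called higher with the mean of all probe sets (1.12).

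Genes tied to organelle clearance and enucleation were higher in 12 of 21 (57.1%) and lower in 4 (19%). Trim10, a ring finger protein of erythroid cells, had 9564 and 7087 in erythroblasts against 30.5 and 44.6 in neutrophils (7.56 ± 0.48, adjusted p = 7.35e-11). Ube2o, a ubiquitin enzyme that remodels the reticulocyte proteome, had 756 and 591 in erythroblasts against 19.6 and 11.6 in neutrophils (4.94 ± 0.48). Xpo7, a nuclear exportin of maturing erythroblasts, had 10167 and 7903 in erythroblasts against 741 and 833 in neutrophils (3.50 ± 0.14). Diaph3, a formin, had 1028 and 719 in erythroblasts against 22.7 and 29.2 in neutrophils (4.74 ± 0.34). Ubac1, a subunit of a ubiquitin ligase, was also among the largest differences, with 10270 and 8154 in erythroblasts against 54.4 and 166 in neutrophils (6.48 ± 0.33). In the other direction the transcriptional coregulator Cited2 had 5.02 and 40.7 in erythroblasts against 974 and 1263 in neutrophils (-5.56 ± 0.39). The autophagy genes were mixed. Ulk1 and Gabarapl1 were higher, at 1.68 ± 0.27 and 1.75 ± 0.25, whereas Atg5, Atg7 and Map1lc3a were lower, at -1.86 ± 0.26, -2.23 ± 0.26 and -1.65 ± 0.26, and Neutrophil had the highest mean of all 10 populations for these last 3 genes.

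**Figure D3:**
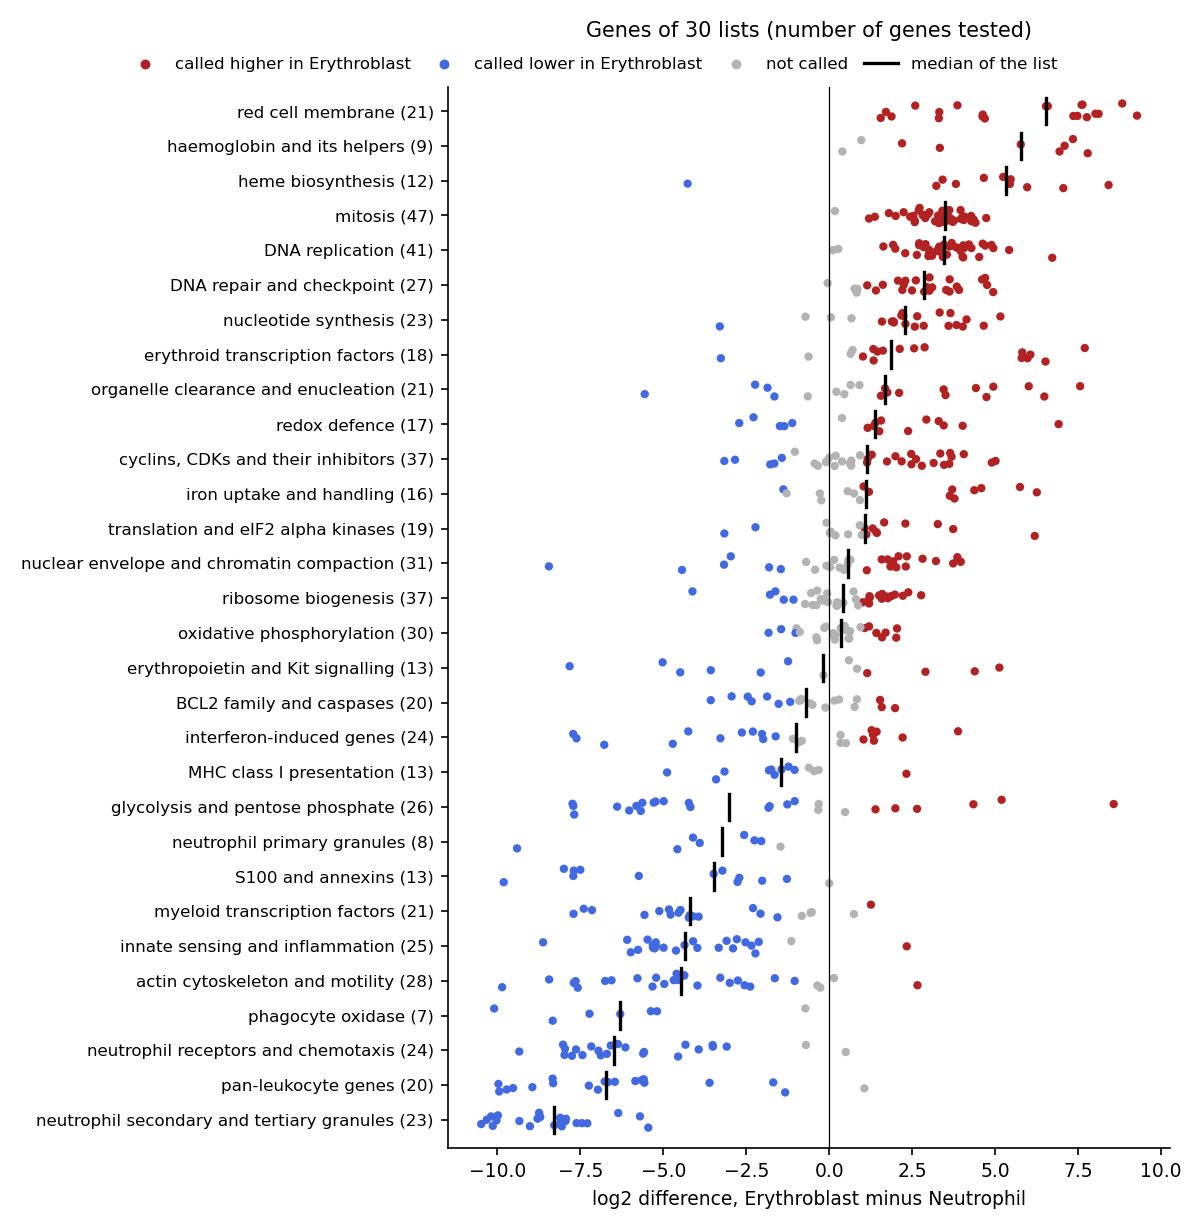
Log2 difference, Erythroblast minus Neutrophil, of each tested gene in 30 gene lists, with the number tested in brackets; red points were called higher, blue points lower, grey points not called, and the black bar is the list's median. Red cell and cell division lists lie to the right, granule, receptor and pan-leukocyte lists to the left, and glycolysis, nuclear envelope and interferon lists hold calls on both sides.

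Cell division genes were higher in erythroblasts almost throughout. Of 41 DNA replication genes tested, 39 were called higher and none lower, with a median of 3.45. Cdc6, which loads the replicative helicase, had 2166 and 2562 in erythroblasts against 11.4 and 21.1 in neutrophils (6.72 ± 0.44, adjusted p = 1.17e-10). The helicase subunit Mcm2 had 3878 and 4078 in erythroblasts against 84.9 and 88.0 in neutrophils (5.42 ± 0.21), and the sliding clamp Pcna had 9517 and 8771 in erythroblasts against 439 and 689 in neutrophils (4.04 ± 0.19). The arrays of the 2 populations did not overlap for 40 of the 41 genes, beside 72.8% of all genes tested. Rfc1 and Rfc2, subunits of the clamp loader, did not pass, at 0.27 ± 0.18 and 0.11 ± 0.18. Erythroblast had the highest mean of the 10 populations in 31 of the 41 genes (75.6%, against 24.7% of all genes). Neutrophil had the lowest in 31 (75.6%, against 20.4%). Against the other 8 populations, 36 were called higher in erythroblasts (beside 16.8% of all genes) and 30 lower in neutrophils (beside 21.5%).

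Of 47 mitosis genes tested, 46 were called higher in erythroblasts, with a median of 3.47, and Erythroblast had the highest mean in 46. Birc5, survivin, had 5126 and 5129 in erythroblasts against 132 and 264 in neutrophils (4.73 ± 0.29, adjusted p = 4.74e-11). Cdk1, the mitotic kinase, had 5617 and 4954 in erythroblasts against 195 and 325 in neutrophils (4.35 ± 0.26). Aurkb, a kinase of chromosome segregation, had 1491 and 1829 in erythroblasts against 76.2 and 129 in neutrophils (3.96 ± 0.42). Top2a, a topoisomerase of dividing cells, had 8042 and 5417 in erythroblasts against 489 and 775 in neutrophils (3.41 ± 0.38). Cit, citron kinase, was the gene not called (0.17 ± 0.28, adjusted p = 0.646), although its other probe sets were higher in erythroblasts, and it was called higher with the mean of all probe sets (2.69) and without probe sets that can match several transcripts (3.81). Neutrophil had the lowest mean of the 10 populations for none of the 47. Against the other 8 populations 8 of the 47 were called higher in neutrophils (17%, beside 12.3% of all genes) and none lower (beside 21.5%). That count depended on the processing. It was 3 higher with the mean of all probe sets, 1 in a test against the minimum size and 14 under quantile normalisation. It also depended on the arrays: the list's median difference from the other 8 was 0.61. Without Neutrophil replicate 2 it was 0.29, and without Neutrophil replicate 1 it was 0.88. The mean log2 level of the mitosis list was 11.21 in Erythroblast and 7.99 in Neutrophil, with 6.08 to 9.12 in the others, and the replication list stood at 9.96 in Erythroblast and at 6.53 in Neutrophil, below the 7.30 to 9.42 of the others.

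The Neutrophil arrays also differed from each other in these genes. Replicate 2 was above replicate 1 in 45 of 47 mitosis genes, with a median difference of 0.71 on the log2 scale, and in 36 of 41 replication genes, with a median of 0.52. Over all genes tested the median between these replicates was -0.01. Of the 8 genes of the primary granule list, 7 were higher on replicate 2, with a median of 0.98. Primary granule genes are transcribed at the dividing promyelocyte stage. The stages of the sorted cells were not measured, and the cause of the difference between these replicates was not tested. The primary granule list also holds Serpinb1a, a protease inhibitor, which was among those 7 with 5688 and 5939. Mpo, myeloperoxidase, had 69.5 and 502 on the Neutrophil arrays, and Elane, neutrophil elastase, had 33.6 and 233. The Erythroblast arrays differed in these lists too: replicate 2 was above replicate 1 in 11 of 47 mitosis genes, with a median difference of -0.18, and in 32 of 41 replication genes, with a median of 0.28, whereas the median over all genes was 0.00.

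**Figure D4:**
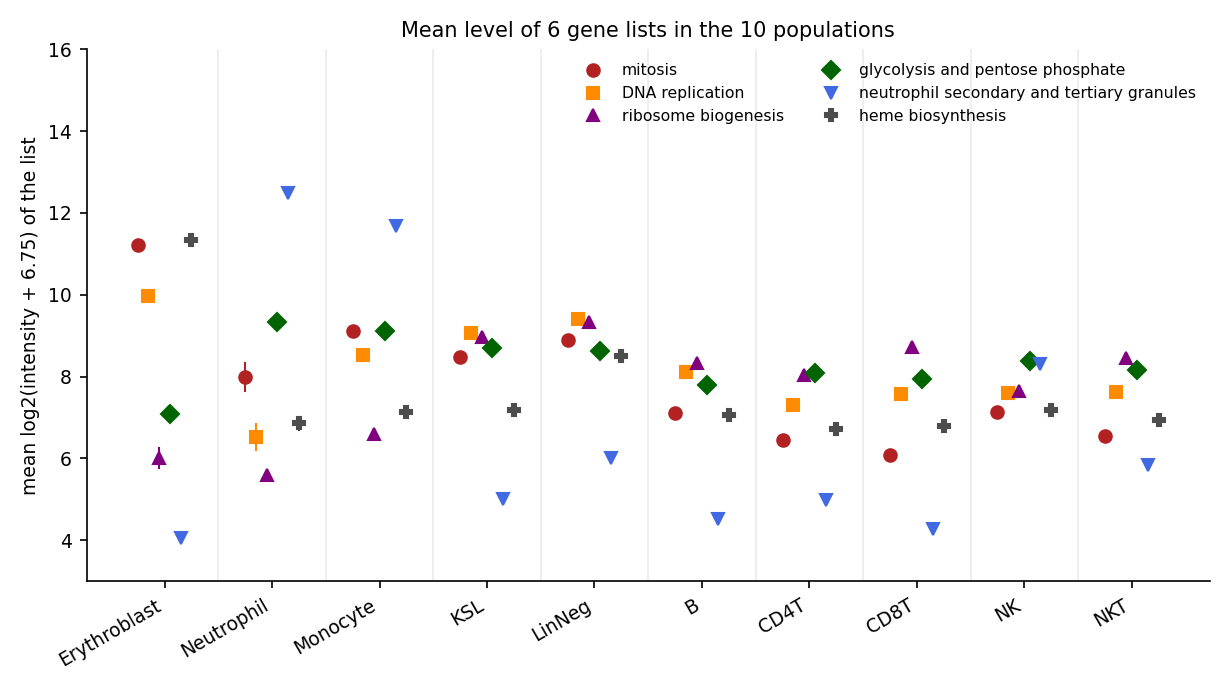
Mean log2 level of 6 gene lists in each of the 10 populations, with a vertical bar between both replicates of Erythroblast and of Neutrophil. Erythroblast stands highest for heme synthesis, mitosis and DNA replication, Neutrophil lowest for DNA replication and highest for the secondary and tertiary granules, and both are lowest for ribosome biogenesis; each list is read across populations only.

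Of 23 nucleotide synthesis genes, 19 were called higher and 1 lower (82.6% and 4.35%). Against the other 8 populations, 9 were higher and 6 lower in erythroblasts, where 16.8% and 29.5% of all genes were. In neutrophils 2 were higher and 16 lower, where 12.3% and 21.5% of all genes were. Erythroblast had the highest mean of the 10 populations in 6 of the 23 (26.1%, near the 24.7% of all genes). Neutrophil had the lowest in 15 (65.2%, against 20.4%). Tk1, thymidine kinase, had 3359.6 and 3422 in erythroblasts against 54.5 and 142 in neutrophils (5.15 ± 0.34, adjusted p = 1.23e-10). Rrm2, the ribonucleotide reductase subunit made in S phase, had 10210 and 8797 in erythroblasts against 405 and 1074 in neutrophils (3.83 ± 0.34). Samhd1, which breaks down deoxynucleotides, was the gene called lower, with 308 and 348 in erythroblasts against 3476 and 3093 in neutrophils (-3.30 ± 0.17), and Neutrophil had its highest mean of the 10 populations. Without Erythroblast replicate 1, 2 genes were called lower. Dck, deoxycytidine kinase, was high on all 4 arrays relative to the other 16, with 4463 and 4719 in erythroblasts against 2957 and 2814 in neutrophils, and it was called higher in erythroblasts with the mean of all probe sets (1.07). Atic, of purine synthesis, was called higher at low levels on both sides, with 52.6 and 77.9 in erythroblasts against 5.67 and 21.0 in neutrophils (1.93 ± 0.33), and all 4 of its values lay below the other 16 arrays.

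Of 37 cyclins, kinases, inhibitors and their E2F partners, 19 were called higher, 5 lower and 13 not called (51.4% and 13.5%). The S phase cyclins Ccne1 and Ccne2 had log2 differences of 4.89 ± 0.23 and 5.01 ± 0.39, and E2f8 one of 3.68 ± 0.48. The D cyclins did not follow: Ccnd3 had 1606 and 2050.1 in erythroblasts against 1976 and 1830 in neutrophils, above the other 16 arrays on all 4. Ccnd2 had 47.8 and 29.7 in erythroblasts against 49.3 and 34.1 in neutrophils, below the other 16 on all 4. Cdk6, their kinase partner, was lower in erythroblasts with 28.1 and 54.8 in erythroblasts against 131 and 177 in neutrophils (-1.78 ± 0.25, adjusted p = 4.6e-06) and likewise below the other 16 arrays throughout. Cdkn2d, the kinase inhibitor p19, had 3599 and 3199 in erythroblasts against 2301 and 2113 in neutrophils, above the other 16 arrays. The inhibitor Cdkn2c, p18, was higher in erythroblasts (3.64 ± 0.23), and the antiproliferative gene Btg1 was lower, with 383 and 431 in erythroblasts against 4029.9 and 3382 in neutrophils (-3.16 ± 0.21). Of 27 DNA repair and checkpoint genes, 23 were called higher and none lower, led by Timeless (4.94 ± 0.57), Brca1 (4.75 ± 0.35) and Tipin (4.69 ± 0.27), which act at replication forks or in repair by recombination.

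All 23 genes of the secondary and tertiary granules were called lower in erythroblasts, against 22.8% of all genes, with a median of -8.29, and Neutrophil had the highest mean of the 10 populations in all 23. Monocyte came next, with a mean log2 level of the list of 11.68, against 12.50 in Neutrophil and 4.06 in Erythroblast, and the other 7 populations stood between 4.27 and 8.31. Camp differed by -9.98 ± 0.99 (adjusted p = 4.39e-08). Ltf, lactoferrin, had 34.6 and 32.4 in erythroblasts against 12030 and 9563 in neutrophils (-8.06 ± 0.56). Mmp9, gelatinase B, had 4.05 and 4.65 in erythroblasts against 12538 and 10656 in neutrophils (-10.03 ± 0.44). Mmp8, whose promoter is shown above, had 10.3 and 8.29 in erythroblasts against 11196 and 9588 in neutrophils (-9.34 ± 0.43). Over these 4 genes the lowest Neutrophil value was 9563 and the highest Erythroblast value was 34.6. Cd177, a surface protein held in these granules, had 16.5 and 3.73 in erythroblasts against 8478 and 7721 in neutrophils (-9.02 ± 0.60), and Olfm4, olfactomedin 4, which marks a subset of neutrophils, had 1.40 and 2.55 in erythroblasts against 2114 and 2653 in neutrophils (-8.09 ± 0.51). The smallest difference of the list was that of Stfa3, a stefin, at -5.45 ± 0.43.

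Of 8 genes of the primary granule list, 7 were called lower, with a median of -3.23, and the protease inhibitor Serpinb1a was among those 7. Prtn3, proteinase 3, had 4.19 and 3.49 in erythroblasts against 103 and 295 in neutrophils (-4.11 ± 0.57, adjusted p = 4.34e-06). Mpo had 38.6 and 30.8 in erythroblasts against 69.5 and 502 in neutrophils (-2.25 ± 0.53, adjusted p = 0.0012). Elane, with 37.4 and 21.9 in erythroblasts against 33.6 and 233 in neutrophils, did not pass (-1.47 ± 0.77, adjusted p = 0.121), and 1 of its Neutrophil values lay between the Erythroblast values. Leaving out Neutrophil replicate 1 brought Elane past the threshold (-2.76), and leaving out Neutrophil replicate 2 took Mpo below it (-0.89). Serpinb1a, an inhibitor of these proteases, was unlike them, with 1.29 and 2.37 in erythroblasts against 5688 and 5939 in neutrophils (-9.41 ± 0.26), and Neutrophil had its highest mean.

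Receptors for bacterial products and chemoattractants were lower in erythroblasts in 22 of 24 genes, with a median of -6.48. Fpr2, a formyl peptide receptor, had 14.2 and 3.59 in erythroblasts against 10167 and 8921 in neutrophils (-9.34 ± 0.40, adjusted p = 2.32e-13). Csf3r, the receptor for G-CSF, had 16.8 and 12.8 in erythroblasts against 3511 and 2723 in neutrophils (-7.17 ± 0.54). Cxcr2, the receptor that draws neutrophils out of marrow, had 11.2 and 6.40 in erythroblasts against 1659 and 1298 in neutrophils (-6.58 ± 0.39). All 3 receptors were highest in Neutrophil among the 10 populations. Cxcr4, the receptor that holds cells in marrow, was present in both, with 321 and 315 in erythroblasts against 499.9 and 547 in neutrophils (-0.71 ± 0.17, below the size required). The integrin chain Itgb2, the partner of Itgam, had 17.3 and 27.2 in erythroblasts against 7969 and 6362 in neutrophils (-7.96 ± 0.20). Selplg, the ligand of P-selectin, had 5.21 and 23.4 in erythroblasts against 4306 and 3282 in neutrophils (-7.63 ± 0.26).

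The phagocyte oxidase, which makes superoxide, was lower in 6 of 7 genes. Cyba, the p22 chain of its membrane part, had 1.20 and 1.13 in erythroblasts against 9184 and 8168 in neutrophils, the smallest adjusted p of the list (-10.10 ± 0.15, adjusted p = 8.99e-20). Its partner Cybb, gp91, had 9.49 and 17.2 in erythroblasts against 6444 and 6254 in neutrophils (-8.33 ± 0.46), and the cytosolic subunit Ncf1, p47, had 83.5 and 39.6 in erythroblasts against 10492 and 8896 in neutrophils (-7.22 ± 0.32). Rac1 did not reach the required size, with 1747 and 1828 in erythroblasts against 3183 and 2744 in neutrophils (-0.72 ± 0.13), whereas its leukocyte paralog Rac2 had 128 and 204 in erythroblasts against 6676 and 5657 in neutrophils (-5.19 ± 0.18).

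Among 21 myeloid transcription factor genes, 16 were called lower, with a median of -4.20. Spi1, PU.1, had 28.4 and 30.4 in erythroblasts against 1117 and 934 in neutrophils (-4.83 ± 0.23, adjusted p = 1.02e-12). Cebpd, a C/EBP factor of late granulocytes, had 11.01 and 29.5 in erythroblasts against 3826 and 3385 in neutrophils (-7.15 ± 0.39), and the related Cebpb differed by -5.57 ± 0.39. Cebpa, the factor of early granulocyte precursors, was also lower, with 9.39 and 10.9 in erythroblasts against 87.0 and 47.0 in neutrophils (-2.07 ± 0.37). Gfi1, a repressor needed for neutrophils, had 2.70 and 6.07 in erythroblasts against 191 and 299 in neutrophils (-4.48 ± 0.30), while its paralog Gfi1b was higher in erythroblasts as given above. Fos, an immediate early gene, had 30.7 and 39.0 in erythroblasts against 6576 and 7404 in neutrophils, with a wide error (-7.40 ± 1.76, adjusted p = 0.00139). Egr1, also of that kind, had 26.2 and 31.7 in erythroblasts against 888 and 1712 in neutrophils (-5.12 ± 0.88). Per1, a clock gene, was the member called higher (1.25 ± 0.47, adjusted p = 0.0302), and it lost the call when any 1 of the 4 arrays was left out.

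Inflammation genes were lower in 23 of 25, with a median of -4.36. Cxcl2, a chemokine for neutrophils, had 0.918 and 10.6 in erythroblasts against 3492 and 5906 in neutrophils (-8.62 ± 0.64, adjusted p = 7.3e-10). Il1b, interleukin 1 beta, had 39.6 and 38.4 in erythroblasts against 2278 and 1804 in neutrophils (-5.47 ± 0.41). Tlr2, a receptor for bacterial lipoproteins, had 37.9 and 52.9 in erythroblasts against 1949.5 and 1376 in neutrophils (-4.99 ± 0.27). Ccrl2, an atypical chemerin receptor, ran against the list with 813 and 560.5 in erythroblasts against 141 and 118 in neutrophils (2.33 ± 0.39, adjusted p = 3.51e-05), and all 4 of its values lay above the other 16 arrays. Of the S100 and annexin genes, 12 of 13 were called lower: S100a8, which forms calprotectin with S100a9, had 118 and 45.1 in erythroblasts against 15234 and 13895 in neutrophils (-7.50 ± 1.11). S100a9 had 9.72 and 11.01 in erythroblasts against 17074 and 13796 in neutrophils (-9.81 ± 0.93). Anxa2, an annexin, had 37.7 and 42.2 in erythroblasts against 11431 and 8216 in neutrophils (-7.70 ± 0.27).

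In the motility and pan-leukocyte lists Erythroblast stood at the bottom of the whole series. Of 28 actin and motility genes, 24 were called lower, and Erythroblast had the lowest mean of the 10 populations in 21 of 28 (75%). Coro1a, coronin 1A, had 1.32 and 1.89 in erythroblasts against 8249.7 and 7253 in neutrophils (-9.86 ± 0.16, adjusted p = 1.09e-19). Tmsb4x, thymosin beta 4, had 60.7 and 58.0 in erythroblasts against 13889 and 12534 in neutrophils (-7.64 ± 0.20). Actg1, gamma actin, had 1149.9 and 1824 in erythroblasts against 12656 and 10685 in neutrophils (-3.00 ± 0.18). Actb, beta actin, was close on all 4 arrays for the probe set used. It had 10409 and 7753 in erythroblasts against 11943 and 9819.9 in neutrophils (-0.27 ± 0.17, adjusted p = 0.188). Its other probe set had the opposite sign, and with the mean of all probe sets Actb was called higher in erythroblasts (1.41). Of 20 pan-leukocyte genes, 19 were called lower, with a median of -6.72, and Erythroblast was lowest of the 10 populations in 18 of 20 (90%). Cd52 had 3.69 and 3.95 in erythroblasts against 11597 and 9655 in neutrophils (-9.97 ± 0.17). Laptm5, a lysosomal protein of blood cells, had 1.21 and 8.32 in erythroblasts against 5821 and 5002 in neutrophils (-8.95 ± 0.21) on a probe set that can match several transcripts, while 1 of its 4 further probe sets had the opposite sign. The mean log2 level of the pan-leukocyte list was 4.33 in Erythroblast and 10.68 in Neutrophil, with 8.65 to 10.84 in the other 8 populations.

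Glucose metabolism differed gene by gene between isoenzymes. Of 26 glycolysis and pentose phosphate genes, 17 were called lower and 6 higher in erythroblasts (65.4% and 23.1%), with a median of -3.01. At the first step, Hk1, the hexokinase of red cells, was higher, with 2528 and 2265 in erythroblasts against 729 and 489 in neutrophils (1.99 ± 0.19). Hk2, the inducible form, was lower, with 16.3 and 3.39 in erythroblasts against 1262 and 777 in neutrophils (-6.03 ± 0.32). Hk3, the myeloid form, was lower as well, with 22.4 and 9.90 in erythroblasts against 5208 and 4219.8 in neutrophils (-7.74 ± 0.45). Among phosphofructokinases, Pfkm, the muscle form, was higher (2.64 ± 0.23), Pfkp, the platelet form, was lower (-4.23 ± 0.17), and Pfkl, the liver form, did not pass (-0.33 ± 0.23, adjusted p = 0.243), while Pfkp and Pfkl each had 1 further probe set of opposite sign. At the last step, Pklr, the pyruvate kinase of liver and red cells, was higher with 82.0 and 117 in erythroblasts against 26.8 and 40.9 in neutrophils (1.39 ± 0.37, adjusted p = 0.00315), a call that was lost with the mean of all probe sets (0.93). Pkm was lower, with 14.9 and 13.3 in erythroblasts against 4826 and 3802 in neutrophils (-7.69 ± 0.16, adjusted p = 8.89e-18). Each of the 3 steps held genes called in opposite directions.

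Transporters also differed within families. Slc16a1, the monocarboxylate carrier MCT1, had 4902 and 4612 in erythroblasts against 0.913 and 13.8 in neutrophils (8.57 ± 0.35, adjusted p = 1.07e-13). Slc16a3, MCT4, had 41.2 and 31.1 in erythroblasts against 146 and 137 in neutrophils (-1.80 ± 0.38). Of the glucose transporters, Slc2a1, GLUT1, was lower, with 7.46 and 2.62 in erythroblasts against 444 and 411 in neutrophils (-5.23 ± 0.22). Slc2a3, GLUT3, was lower, with 114 and 136 in erythroblasts against 7082 and 6349.9 in neutrophils (-5.68 ± 0.16), and Slc2a4, GLUT4, was higher, with 490.3 and 522 in erythroblasts against 13.3 and 25.2 in neutrophils (4.34 ± 0.58). Aldolase A, Aldoa, had 84.8 and 49.9 in erythroblasts against 6566 and 5563 in neutrophils (-6.39 ± 0.20). Phosphoglycerate kinase, Pgk1, and lactate dehydrogenase A, Ldha, differed by -4.99 ± 0.14 and -5.63 ± 0.20. Each of these 3 genes had its lowest mean of the 10 populations in Erythroblast and its highest in Neutrophil. Bpgm, which makes the 2,3-bisphosphoglycerate that tunes haemoglobin, was higher, with 4766 and 2894 in erythroblasts against 96.7 and 93.4 in neutrophils (5.19 ± 0.26). Pgd, a dehydrogenase of the pentose phosphate path, had 39.3 and 40.5 in erythroblasts against 10584 and 9006 in neutrophils (-7.71 ± 0.15), and the path's transketolase Tkt differed by -1.27 ± 0.17.

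**Figure D5:**
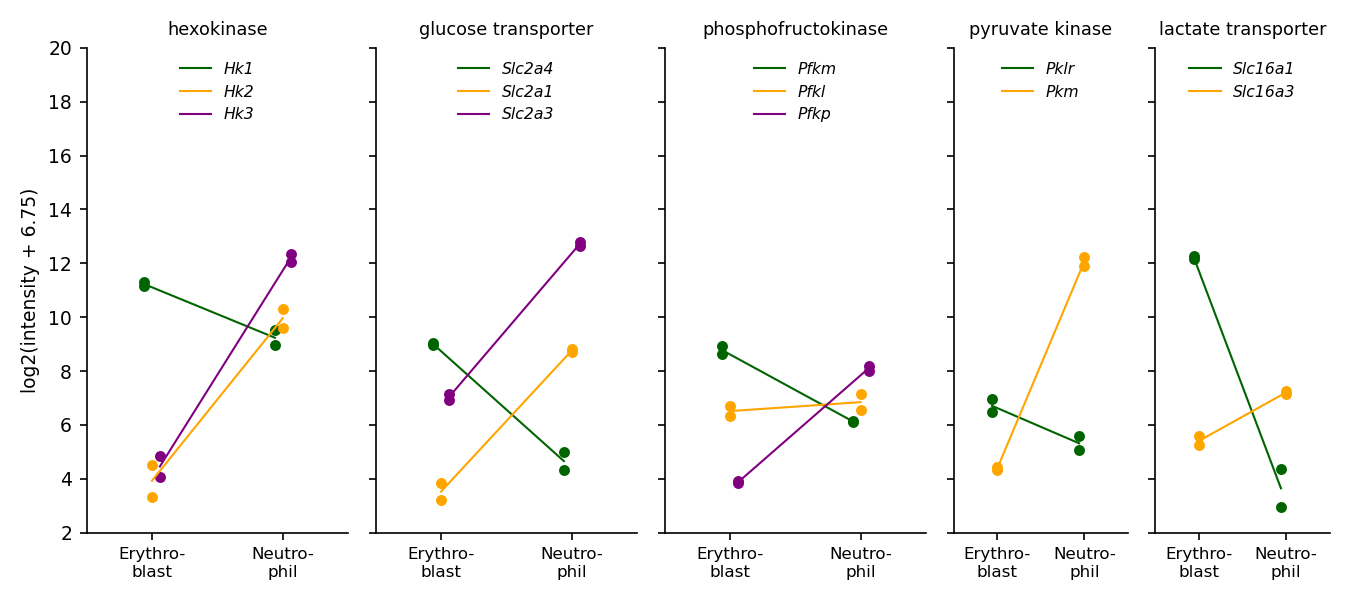
Log2 level of related genes on the Erythroblast arrays (left) and the Neutrophil arrays (right), with points for arrays and lines joining the means, for hexokinases, glucose transporters, phosphofructokinases, pyruvate kinases and lactate transporters. Lines of 1 family slope in opposite directions, such as those of Pklr (down to Neutrophil) and Pkm (up to Neutrophil), and each line is to be compared only with itself, since probe sets differ in brightness.

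Antioxidant genes leaned to erythroblasts, with 11 of 17 called higher and 5 lower (64.7% and 29.4%). Gclc, the catalytic subunit that starts glutathione synthesis, had 2584 and 2821 in erythroblasts against 14.6 and 17.0 in neutrophils (6.91 ± 0.21, adjusted p = 1.19e-15). Cat, catalase, had 4307 and 3355 in erythroblasts against 333 and 352 in neutrophils (3.45 ± 0.17). Sod1, a superoxide dismutase, had 6553 and 5801 in erythroblasts against 536 and 719.9 in neutrophils (3.30 ± 0.20). Neutrophil had the lowest mean of the 10 populations for these 3 genes. Gsr, glutathione reductase, was lower in erythroblasts, with 122 and 185 in erythroblasts against 1006 and 1043 in neutrophils (-2.71 ± 0.28), as were Nfe2l2, the NRF2 factor (-1.49 ± 0.21), and Hmox1, heme oxygenase (-2.28 ± 0.57, adjusted p = 0.00202), which was not called without Erythroblast replicate 2.

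Of 30 oxidative phosphorylation genes, 7 were called higher (23.3%), 3 lower (10%) and 20 not called, beside 21.6% and 22.8% of all genes. The list's median was 0.36. Atp5b, the beta subunit of ATP synthase, had 4544 and 4073 in erythroblasts against 1037 and 1044 in neutrophils (2.04 ± 0.14, adjusted p = 2.22e-10). Cycs, cytochrome c, had 4062 and 3665 in erythroblasts against 1557 and 1811 in neutrophils (1.20 ± 0.14). The genes called lower were Sdhd, a subunit of complex II, Polg, the mitochondrial DNA polymerase, and Mfn2, a mitofusin, at -1.02 ± 0.19, -1.83 ± 0.24 and -1.45 ± 0.29. Sdhd lost the call when Erythroblast replicate 1 or Neutrophil replicate 1 was left out, and 5 genes were called lower without Erythroblast replicate 2.

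Ribosome biogenesis genes were low in both populations. Of 37 genes, 15 were called higher in erythroblasts and 5 lower (40.5% and 13.5%), with a median of 0.42, or 0.87 without Erythroblast replicate 1. Against the other 8 populations, 32 were lower in erythroblasts and 35 in neutrophils, where 29.5% and 21.5% of all genes were, in comparisons that share the same 16 arrays. Erythroblast and Neutrophil were the 2 lowest of the 10 populations in 24 genes (64.9%, against 12% of all genes tested). All 4 arrays lay below the other 16 in 16 genes (43.2%, against 5.21%). The mean log2 level of the list was 6.00 in Erythroblast and 5.59 in Neutrophil, with 6.60 to 9.32 in the other 8 populations.

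Myc, a driver of ribosome synthesis, had 4.99 and 11.7 in erythroblasts against 18.2 and 4.39 in neutrophils, all below the other 16 arrays, whose population means ran from 30.7 to 1388. Its difference between the populations did not pass (-0.18 ± 0.32, adjusted p = 0.672). Ncl, nucleolin, had 905 and 1035 in erythroblasts against 187 and 221 in neutrophils (2.21 ± 0.19, adjusted p = 3.76e-09). Npm1, nucleophosmin, had 546 and 899 in erythroblasts against 190.2 and 273 in neutrophils (1.59 ± 0.23). Both nucleolar genes were lowest in Neutrophil among the 10 populations, and Erythroblast had the next lowest Npm1 mean. Dkc1, dyskerin, which modifies ribosomal RNA, had the largest difference upwards, with 447 and 363 in erythroblasts against 59.2 and 48.1 in neutrophils (2.77 ± 0.18). Polr1a, the large subunit of RNA polymerase I, ran against the list, with 11.4 and 5.03 in erythroblasts against 279 and 219.7 in neutrophils (-4.12 ± 0.28, adjusted p = 1.8e-10), and Neutrophil had its highest mean.

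Genes that both populations shared against the other 8 were taken from a contrast of their mean with the mean of the rest, in which 1324 genes (9.43%) were called higher and 3115 (22.2%) lower. All 4 arrays lay above the other 16 in 152 of the genes called higher (1.08% of genes tested) and below them in 662 of those called lower (4.71%). Nfe2, a factor of erythroid cells and megakaryocytes, led the first set, with 5955 and 3940.5 in erythroblasts against 3481 and 2771 in neutrophils and other population means of 4.78 to 1527 (difference from the rest 5.19 ± 0.16, adjusted p = 4.16e-15). Cd24a, the heat stable antigen, had 12861 and 10039 in erythroblasts against 7722 and 8064 in neutrophils (4.22 ± 0.20), but the other population means reached close to the Neutrophil values, at 17.4 to 6645, with B highest. Mxd1, a MYC antagonist of terminal differentiation, had 2463 and 1521 in erythroblasts against 3496 and 3394 in neutrophils, with other population means of 86.0 to 1227 (4.06 ± 0.16). None of Nfe2, Cd24a and Mxd1 was called between erythroblasts and neutrophils, although Mxd1 was called lower without Erythroblast replicate 1 (-1.18), under quantile normalisation (-1.04) and with the mean of all probe sets (-1.53). Mgll, monoglyceride lipase, and Carhsp1, an RNA-binding protein, were shared and also higher in erythroblasts, with differences between the populations of 2.40 ± 0.45 and 2.32 ± 0.31. Tnfaip2, Emilin2 and Tinagl1 completed the 8 largest, at 4.66 ± 0.20, 4.17 ± 0.26 and 4.79 ± 0.29 from the rest. Among the other 8 populations, Monocyte had the highest mean for Nfe2, Mxd1, Mgll, Carhsp1, Tnfaip2 and Tinagl1. For Emilin2 it was NK. Further probe sets of Mgll and Tnfaip2 disagreed in sign for the contrast between the populations.

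The genes low in both began with Mndal, an interferon-inducible gene of the Ifi200 family, with 3.21 and 15.5 in erythroblasts against 38.4 and 43.6 in neutrophils and a difference from the rest of -6.48 ± 0.20 (adjusted p = 3.53e-15). Cd48, a pan-leukocyte surface protein, had 1.97 and 0.838 in erythroblasts against 28.2 and 5.21 in neutrophils (-6.04 ± 0.24), and its call as lower in erythroblasts than in neutrophils was lost without Erythroblast replicate 2 or Neutrophil replicate 1. Lgals1, galectin 1, had 6.56 and 25.4 in erythroblasts against 155 and 204 in neutrophils (-5.41 ± 0.24). Slc25a4, the adenine nucleotide carrier, had 10.1 and 1.67 in erythroblasts against 1.69 and 18.4 in neutrophils (-5.95 ± 0.24), with values near the floor on all 4 arrays. S100a10 and Kbtbd11 followed at -5.73 ± 0.22 and -5.53 ± 0.18, and Hadh and Evl at -4.96 ± 0.21 and -4.96 ± 0.23. The same disagreement among probe sets was found for Slc25a4, Kbtbd11, Hadh and Evl. Among the other populations, Monocyte had the lowest mean for Mndal, Cd48, Lgals1, Slc25a4, S100a10, Kbtbd11 and Hadh. For Evl it was KSL. Of the immunoproteasome, Psmb8 had 10.8 and 3.60 in erythroblasts against 445 and 345 in neutrophils (-4.89 ± 0.22), and Psmb10 differed by -3.16 ± 0.26. Both lay below the other 16 arrays on all 4 and were lower in erythroblasts than in neutrophils.

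Of 31 genes of the nuclear envelope and chromatin, 14 were called higher, 6 lower and 11 not called (45.2% and 19.4%, beside 21.6% and 22.8% of all genes), so the share called lower was near that of all genes. Padi4, the enzyme that citrullinates histones when neutrophils release chromatin, had 3.48 and 0.604 in erythroblasts against 3121 and 2924 in neutrophils (-8.45 ± 0.38, adjusted p = 3.94e-13). Lbr, the lamin B receptor that neutrophils need for a lobed nucleus, was high in both, with 6032 and 5430.5 in erythroblasts against 4565 and 4674 in neutrophils, above the other 16 arrays (0.31 ± 0.12). Lmna, lamin A, had 303 and 243 in erythroblasts against 40.6 and 12.3 in neutrophils (3.21 ± 0.40). Sun1 and Sun2, which link the nucleus to the cytoskeleton, stood in opposite order. Sun1 had 829 and 875 in erythroblasts against 169.6 and 158 in neutrophils (2.33 ± 0.20). Sun2 had 498 and 559 in erythroblasts against 4730 and 4887 in neutrophils (-3.17 ± 0.15). Of chromatin enzymes, Ezh2 (3.96 ± 0.28) and the maintenance methyltransferase Dnmt1 (2.81 ± 0.18) were higher, and Dnmt3a (-2.97 ± 0.32) and Tet2 (-4.44 ± 0.24) were lower. Kmt5a, a histone H4 methyltransferase, lay above the other 16 arrays on all 4, with 1457 and 1249 in erythroblasts against 1312 and 1131 in neutrophils, and was called higher in erythroblasts with the mean of all probe sets (1.55).

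Among 19 genes of translation and its eIF2 alpha kinases, 10 were called higher and 2 lower (52.6% and 10.5%). Eif2ak1, the heme-regulated kinase HRI, had 2079 and 1363 in erythroblasts against 117 and 124 in neutrophils (3.73 ± 0.27, adjusted p = 5.54e-10). Ppp1r15a, which reverses its mark, had 6398 and 4259.9 in erythroblasts against 73.9 and 56.8 in neutrophils (6.19 ± 0.59). Eif2ak3, the kinase PERK of the endoplasmic reticulum, was lower, with 91.0 and 135 in erythroblasts against 564 and 523 in neutrophils (-2.22 ± 0.25), and so was Eif4ebp1, a repressor of cap-dependent translation (-3.16 ± 0.18).

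Antigen presentation and interferon genes were mixed. Of 13 MHC class I genes, 9 were called lower and 1 higher (69.2% and 7.69%), and Erythroblast had the lowest mean of the 10 populations in 10 (76.9%, against 26.9% of all genes). H2-K1, a class I heavy chain, had 1956 and 2171 in erythroblasts against 7578 and 6349 in neutrophils (-1.75 ± 0.15). B2m, its light chain, had 4299 and 4500.1 in erythroblasts against 6277 and 5830.1 in neutrophils (-0.46 ± 0.12, below the size required). Of 24 interferon-induced genes, 7 were higher and 11 lower (29.2% and 45.8%). Rsad2, viperin, had 12641 and 8582 in erythroblasts against 2565 and 1970.3 in neutrophils (2.21 ± 0.33) and was above the other 16 arrays on all 4. Isg20, an exonuclease, had 7171 and 5214 in erythroblasts against 501 and 335 in neutrophils (3.88 ± 0.24, adjusted p = 4.09e-11). The Ifitm genes, membrane proteins that restrict viruses, were lower. Ifitm1 had 20.7 and 4.94 in erythroblasts against 4368 and 3236 in neutrophils (-7.72 ± 0.48). Ifitm3 had 1458 and 1216 in erythroblasts against 8717 and 7901 in neutrophils (-2.63 ± 0.26).

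Of 20 genes of the BCL2 family and the caspases, 3 were called higher, 7 lower and 10 not called (15% and 35%, beside 21.6% and 22.8% of all genes). Mcl1, on which neutrophils depend for survival, had 2871 and 2577 in erythroblasts against 6331 and 6004 in neutrophils (-1.18 ± 0.16, adjusted p = 2.11e-06), beside Bcl2l1, which was higher in erythroblasts as given above. Fas, a death receptor, had 1.37 and 3.55 in erythroblasts against 110.5 and 94.0 in neutrophils (-3.57 ± 0.43). Bid, a BH3 protein, had 33.9 and 52.8 in erythroblasts against 446 and 309.9 in neutrophils (-2.94 ± 0.26). Bcl2l11, the BH3 protein BIM, was higher, with 634 and 691 in erythroblasts against 275 and 171 in neutrophils (1.58 ± 0.24).

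Markers of other cell types that the gates could admit were mostly dim. Summed over 9 B cell markers, intensity was 252 and 186 in erythroblasts and 286 and 172 in neutrophils, against 30743 in B. For 9 T cell markers the sums were 105 and 131 in erythroblasts and 236 and 232 in neutrophils, against 15650 in CD4T, and for 10 NK markers 206 and 152 in erythroblasts and 178 and 246 in neutrophils, against 24291 in NKT. The sums of the 19 monocyte and macrophage markers were 8382 and 6836 in erythroblasts and 5424 and 4212 in neutrophils, against 31105 in NK, and those of the 12 megakaryocyte markers were 826 and 718 in erythroblasts and 764 and 805 in neutrophils. The T cell sum of neutrophils held 1 called gene, Cd3d, with 2.51 and 1.21 in erythroblasts against 157 and 165 in neutrophils, while its partner Cd3e had 13.7 and 15.7 in erythroblasts against 9.87 and 10.7 in neutrophils. Of 19 monocyte and macrophage markers tested, 6 were lower in erythroblasts, among them Csf1r, the M-CSF receptor, with 40.4 and 82.0 in erythroblasts against 2702 and 1854 in neutrophils (-5.12 ± 0.53). Cd68, a lysosomal protein, had 34.7 and 19.9 in erythroblasts against 427 and 265 in neutrophils (-3.37 ± 0.44). Ctsb, cathepsin B, and Spic, a factor of red pulp macrophages, were higher. Ctsb had 8018 and 6499 in erythroblasts against 1745 and 1637 in neutrophils, and it made up most of the list's Erythroblast sums. The median difference of the list was -0.76. Spic had 44.7 and 34.2 in erythroblasts against 4.04 and 1.29 in neutrophils. Without 1 array, the list held 1 gene called higher, since Spic was not called without Erythroblast replicate 1 or without Neutrophil replicate 2, and its further probe set had the opposite sign. C1qa, a complement gene of tissue macrophages, had 6.63 and 6.50 in erythroblasts against 1.87 and 2.86 in neutrophils. Of 12 megakaryocyte markers, 2 were called higher and 1 lower. The gene called lower, with the largest difference of the list, was Itgb3, an integrin chain of platelets that other blood cells also carry, with 1.44 and 7.79 in erythroblasts against 487 and 481 in neutrophils (-5.49 ± 0.27). The platelet gene Gp9 was higher, with 199.6 and 246 in erythroblasts against 26.4 and 17.0 in neutrophils. Vwf, von Willebrand factor, was higher, with 136 and 83.9 in erythroblasts against 1.30 and 0.67 in neutrophils. Pf4 had 22.2 and 12.4 in erythroblasts against 35.2 and 32.3 in neutrophils, and 4 megakaryocyte markers of 12 were called higher without Neutrophil replicate 2. Of 8 eosinophil, basophil and mast cell markers none was called, and of 7 plasma cell markers 1 was called in each direction. Among 14 stem and progenitor markers, Erg alone was called, with 1.48 and 2.21 in erythroblasts against 526 and 657 in neutrophils (-6.11 ± 0.35). Cd34 had 20.6 and 15.1 in erythroblasts against 10.2 and 3.05 in neutrophils. The part of other cell types in the results was not tested.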

How the data were processed

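The 20 samples were hybridised to Affymetrix Mouse Genome 430 2.0 arrays. The authors deposited 1 linear intensity per probe set, brought to 1 scale, since the mean without the lowest and highest 2% was near 100 on each array. The software that summarised the probes is not given in the sources used here.

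Of 45101 probe sets, 34945 carried 1 gene symbol in the platform annotation, 932 several and 9160 none. The probe set with the highest mean over all arrays stood for its gene. Intensities were taken to log2 after adding 6.75, their 25th percentile. Genes whose highest population mean passed the median of all values (4.89) were tested, 14044 of 18193. One limma fit (version 3.58.1, R 4.3.3) with a factor of 10 populations covered all 20 arrays, with 10 residual degrees of freedom, a mean-variance trend and Benjamini-Hochberg adjustment over all genes within each contrast. It was tested on simulated data. Only 2 arrays a population limit the precision.

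The named genes were the 15 largest differences in each direction among called, non-overlapping genes of at least median brightness, the 8 largest shared genes in each direction, and members of 40 gene lists chosen for their roles. The members and lists were chosen with earlier results of these data known. Lists are described by counts, shares and medians, to be read against those of all genes. Alternatives covered the pseudocount, normalisation, filter, choice of probe set, the 4 arrays alone, the trend, a test against the minimum size (treat), the replicate number as a block and each array left out. Deviations of same-numbered Erythroblast and Neutrophil arrays correlated at 0.0293, and 1 of 45 pairs of populations passed 0.1, so the numbers were not treated as pairs.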

Additional observations from a re-analysis of the deposited data

How the results depend on the processing

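With 2 arrays a population and unnamed animals, no difference here can be extended beyond these arrays, and RNA amplified in 2 cycles, with unequal 3' to 5' ratios, underlies every value. Genes near the floor have compressed differences. All directions and counts are relative to each array's own scale, on which the median of all genes moved from 0.10 to 0.14 under quantile normalisation.

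The counts called higher and lower stayed within 1.5 times their values of 3033 and 3200 under all alternatives run, except that a test against the minimum size called 1666 higher, with 2145 lower. That test also left 3988 genes for Erythroblast against the rest, 2563 for Neutrophil against the rest and 2537 for both together. By its construction it asks for differences beyond 1 on the log2 scale. Leaving out 1 array gave 2819 to 2915 higher and 3109 to 3178 lower, 6140 to 6513 for Erythroblast, 4415 to 4754 for Neutrophil and 4394 to 4696 for both. The same-numbered arrays share no more than a number, and the fit with the replicate block called 3034 higher and 3206 lower and changed the call of no named gene.

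Across 246 named differences and 16 alternatives, 3836 of 3909 recomputed differences kept direction and side of the threshold, 46 fell below it, 11 passed it newly and 16 changed sign. The following log2 differences, Erythroblast minus Neutrophil, changed sign. With the mean of all probe sets, Actb was 1.41, where it was called higher, and Slc25a4 was 0.23. With the constant at the 5th percentile, which changed the probe set chosen for the gene, Hbb-b2 was -3.15. Without probe sets that can match several transcripts, Hbb-b2 was -2.12 and Laptm5 was 3.20. With the constant at the median, Pfkl was 0.31. Under quantile normalisation, Pfkl was 0.45. With 1 array left out at a time, these uncalled differences spanned 0: Ccnd2 -0.39 to 0.19, Ccnd3 -0.24 to 0.11, Cit -0.13 to 0.47, Myc -0.76 to 0.40, Rfc2 -0.13 to 0.36 and Slc25a4 -1.08 to 0.50. Of these genes, Hbb-b2 and Laptm5 had been called, and both changed sign where another probe set stood for the gene. The cause of the other changes of sign was not tested. With the mean of all probe sets, Bcl2l11, Cd8a, Cycs, Foxo3, Mfn2, Ncl, Pklr, Sdhd and Spic were no longer called. Without probe sets of the multiple-match type, Mcl1 was no longer called. The test against the minimum size took the call from 18 named genes. They were Bcl2l11, Cd48, Cd8a, Cycs, Foxo3, Hmox1, Mcl1, Mfn2, Mndal, Mpo, Nfe2l2, Per1, Pklr, Sdhd, Slc16a3, Slc25a28, Spic and Tkt. The mean of all probe sets newly called Cit (2.69), Dck (1.07), Jak2 (1.12), Kmt5a (1.55) and Mxd1 (-1.53), leaving out those probe sets newly called Cit (3.81), and the 4 arrays alone newly called Slc40a1 (-1.29).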
